A study of Homo sapiens with 6 samples.

Results

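The endoplasmic reticulum (ER) chaperones and XBP1 were examined as 10 genes, taken by symbol from the deposited expression table: HSPA5, HSP90B1, DNAJB11, CALR, CANX, PDIA3, PDIA4, PDIA6, ERP29 and XBP1. All 10 were among its 34738 genes. The study knocked down GDF15, a secreted stress-responsive cytokine of the TGF-β family, in a human thyroid cancer cell line, KHM-5M per the labels, and sequenced poly(A) RNA. The siGDF15 group (3 libraries) was transfected with a small interfering RNA (siRNA) against GDF15, and the NC group (3 libraries) was the control. The methods describe NC as negative control cells and list a negative control siRNA, while the submitted design calls the control blank. These descriptions differ on whether the sequenced NC cells received an siRNA, and if they received none, an effect of transfection and an effect of GDF15 loss cannot be told apart. The labels give KHM-5M for all 6 libraries, whereas the only line the paper names beside its sequencing results is TPC-1, another thyroid cancer line, and which line was sequenced was not settled here.

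Secreted and membrane proteins enter the ER as they are made and fold there with the help of chaperones, lectins and disulfide isomerases. When unfolded protein accumulates, the sensors IRE1, PERK and ATF6 start the unfolded protein response (UPR). IRE1 splices the XBP1 message into the form that encodes an active transcription factor, and spliced XBP1 and cleaved ATF6 raise transcription of chaperone genes. Thyroid follicular cells are known for a heavy load of secretory protein, chiefly thyroglobulin. A table with 1 row per gene does not separate spliced from unspliced XBP1 message, so only the total XBP1 transcript was measured.

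Levels are given as FPKM, fragment counts scaled for the length of the transcript and for how many fragments mapped in each library. A comparison of FPKM between genes rests on the transcript lengths that the scaling used, which were not checked here. Differences are log2 fold changes of siGDF15 over NC with their standard error (SE), from a model fitted to the counts of all 11867 genes whose FPKM averaged 1 or more, with TMM scaling of the libraries. All 10 members passed that minimum. A gene was called where its Benjamini-Hochberg adjusted p from edgeR, over all tested genes, was under 0.05. GDF15 itself fell by 0.92 on the log2 scale (SE 0.079, adjusted p = 2.4e-05), from 19.3 to 23.2 FPKM in NC to 10.5 to 10.8 FPKM in siGDF15. Total counts lay between 67569576 and 68025163 in 5 libraries and were 51738814 in siGDF15 replicate 2. The mitochondrially encoded genes held 6.39 to 6.78% of counts in NC against 8.53 to 9.17% in siGDF15, and TMM factors were 1.03 to 1.04 for NC against 0.958 to 0.972 for siGDF15. As FPKM are scaled by all mapped fragments, the members' FPKM differences lie below their fitted fold changes, and the median fold change of all tested genes was 0.00 with TMM and -0.10 with library totals. The part of the mitochondrial share in any result below was not tested. Of 8 thyroid follicular markers, 7 had a row in the table and only PAX8 and FOXE1 averaged at least 1 FPKM, with PAX8 higher in siGDF15 by 0.53 (adjusted p = 0.000122). TG, which encodes thyroglobulin, was untested, at 0.035 to 0.071 FPKM in NC and 0.162 to 0.219 FPKM in siGDF15. The message of the defining secretory product of the labelled tissue was thus nearly absent in both groups. The markers of blood and endothelium summed to 0.197 to 0.411 FPKM in NC and 0.733 to 0.861 FPKM in siGDF15, none of them reaching a mean of 1 FPKM. The 4 mesenchymal markers summed to 892 to 1000 FPKM in NC against 1130 to 1180 FPKM in siGDF15, where SPARC (1.06, adjusted p = 5.33e-05) and FN1 (0.47, adjusted p = 0.000795) rose and VIM and CDH2 were not called. The 5 epithelial markers summed to 102 to 149 FPKM in NC against 126 to 136 FPKM in siGDF15, and CDH1 alone was called, higher by 0.61 (adjusted p = 0.0489). The part of these marker shifts in the members' changes was not tested. In RNA of a whole culture, fewer cells of a kind and less RNA per cell cannot be told apart.

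Transcription of ER chaperones is classically driven through the ER stress response element (ERSE), a DNA motif that has CCAAT and CCACG at its ends and 9 bases of any sequence between them. The exact motif, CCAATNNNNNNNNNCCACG, was searched on both strands of 35116 RefSeq promoter windows of GRCh38.p14, each reaching from 250 bases before to 50 bases after a transcript start. It occurred in 27 of them (0.0769%). Of the 9 members with a window in that table, 6 held it, in 8 of their 15 windows. PDIA3 had no entry. The matches are printed below 5′ to 3′ on the strand of the gene, with 5 flanking bases on each side and the ends of the motif in capitals, because they are the sequence feature most of these genes share. In reverse matches the ends read CGTGG and ATTGG. A match is a description of the letters and was not tested for binding. The sites stand at chr9:125241386-125241414 (HSPA5, minus strand), chr12:103930211-103930239 and chr12:103930316-103930344 (HSP90B1, plus strand), chr19:12938379-12938407 (CALR, plus), chr5:179698773-179698801 (CANX, plus), chr2:10812848-10812876 (PDIA6, minus) and chr22:28800598-28800626 (XBP1, minus).
HSPA5: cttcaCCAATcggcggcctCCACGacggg
HSP90B1, forward: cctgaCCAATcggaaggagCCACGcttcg
HSP90B1, reverse: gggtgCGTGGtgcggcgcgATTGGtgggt
CALR, reverse: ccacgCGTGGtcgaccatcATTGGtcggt
CANX: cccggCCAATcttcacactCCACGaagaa
PDIA6: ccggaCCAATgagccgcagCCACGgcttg
XBP1: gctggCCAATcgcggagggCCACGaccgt

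Of the 10 members, 6 were called (60.0%), beside 61.4% of all tested genes. HSPA5 and PDIA6 rose, which is 2 of 10 beside 30.0% of all tested genes called higher. ERP29, DNAJB11, PDIA4 and XBP1 fell, 4 of 10 beside 31.4% called lower. HSP90B1, CALR, CANX and PDIA3 did not pass the test. The share of members called was therefore near the background in either direction, and the median fold change of the members was -0.06. ERP29 was the only member lower by at least 2-fold, a class that held 4.78% of all tested genes. The FPKM of the groups did not overlap for 9 members, the exception being PDIA6, beside 68.4% of all tested genes. With 3 libraries against 3, the exact two-sided permutation test over libraries cannot go under p = 0.1, and it gave that smallest value for all members other than PDIA6 (exact permutation p = 0.6).

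**Figure D1:**
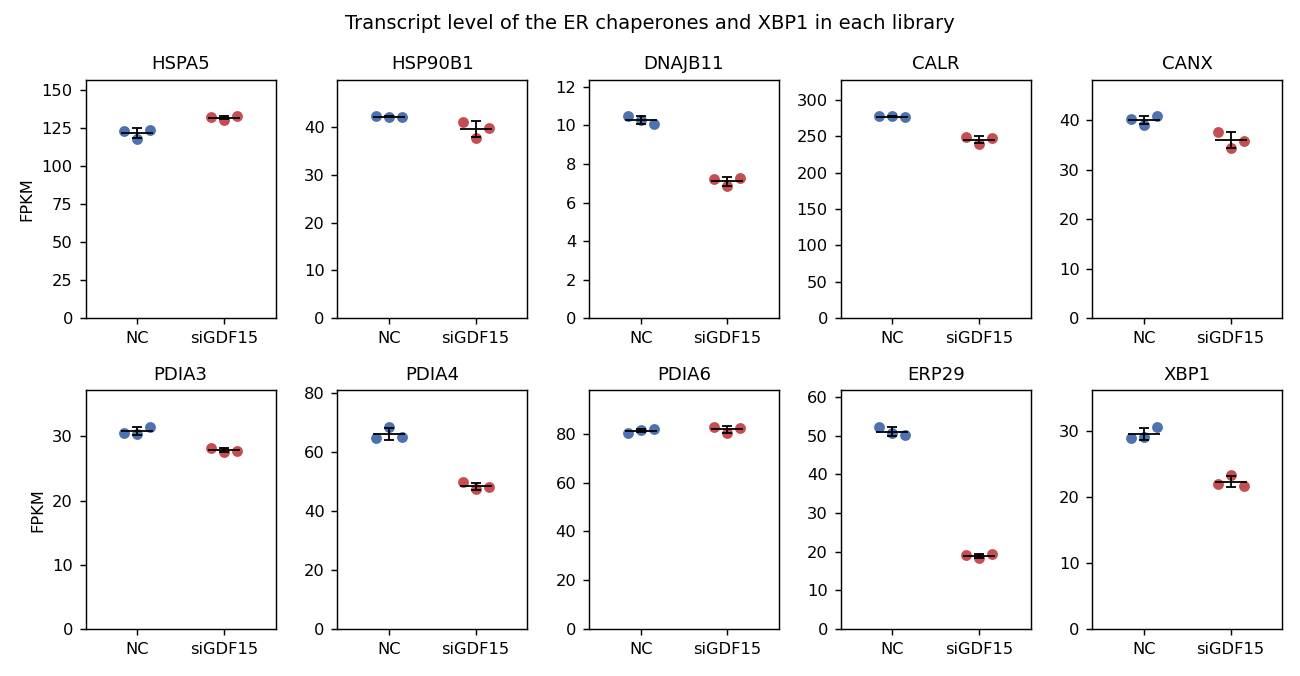
FPKM of each member in each library (points, NC in blue and siGDF15 in red), with the group mean as a horizontal line and the SD as an error bar (n = 3), on axes that start at 0. ERP29 fell from a mean of 51.1 to 18.9 FPKM, HSPA5 rose from 122 to 132 FPKM, and only the PDIA6 libraries overlap between the groups.

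HSPA5 (ENSG00000044574, chr9:125234853-125241382, minus strand) encodes BiP, the ER member of the HSP70 family, which binds exposed hydrophobic stretches and holds the UPR sensors inactive. Its level was 123, 118 and 124 FPKM in NC replicates 1 to 3 and 132, 131 and 133 FPKM in siGDF15 replicates 1 to 3. Every siGDF15 library was above every NC library, and the rise was small. The fold change was 0.22 (SE 0.041, adjusted p = 0.00178), which is 1.17-fold on TMM-scaled counts and larger than the difference in FPKM. The call was kept under all 15 alternative settings, where the fold change ranged from 0.11 to 0.26. HSPA5 had the highest fold change of the members. The 250 bases before its start, chr9:125241344-125241593 on the minus strand, are printed below with the ends of the exact ERSE in capitals. They hold CCAAT 4 times and CCACG once on either strand.
HSPA5 promoter: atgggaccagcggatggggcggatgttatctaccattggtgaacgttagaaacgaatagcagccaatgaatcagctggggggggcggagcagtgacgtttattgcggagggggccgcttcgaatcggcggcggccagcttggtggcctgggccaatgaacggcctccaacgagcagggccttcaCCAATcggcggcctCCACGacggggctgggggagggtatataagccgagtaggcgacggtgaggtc

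HSP90B1 (ENSG00000166598, chr12:103930107-103948015, plus strand) encodes GRP94, the HSP90 of the ER lumen, which serves a narrower set of clients such as integrins and Toll-like receptors. Its level was 42.4, 42.1 and 42.2 FPKM in NC and 41.1, 37.8 and 39.9 FPKM in siGDF15. The siGDF15 libraries were all slightly lower on this scale and spread more widely. The fitted fold change was 0.01 (SE 0.042, adjusted p = 0.799), and its sign turned with the scaling, so no direction is given for HSP90B1.

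DNAJB11 (ENSG00000090520, chr3:186567403-186585800, plus strand) encodes ERdj3, a J-domain co-chaperone that brings clients to BiP. It had the lowest level of the members, at 10.5, 10.3 and 10.1 FPKM in NC and 7.201, 6.833 and 7.278 FPKM in siGDF15. The groups were well apart. DNAJB11 fell by 0.43 on the log2 scale (SE 0.044, adjusted p = 6.61e-05), to 74.4% of NC on TMM-scaled counts. TBCCD1 lies on the opposite strand of the same locus with counts equal to 19.9% of those of DNAJB11, and whether counting used the strand is not given in the sources used here. BiP and its J-domain partner thus moved in opposite directions, both past the test.

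CALR (ENSG00000179218, chr19:12938578-12944489, plus strand) encodes calreticulin, the soluble lectin that retains monoglucosylated glycoproteins for folding and also binds calcium. It had the highest level of the members, with 277.6, 277.1 and 276.0 FPKM in NC and 248.8, 239.7 and 247.5 FPKM in siGDF15. The FPKM groups did not overlap, yet the fold change with TMM scaling was -0.07 (SE 0.037, adjusted p = 0.136), short of the threshold. With library totals it was -0.17 (adjusted p = 0.00378).

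CANX (ENSG00000127022, chr5:179678628-179731622, plus strand) encodes calnexin, the membrane-bound counterpart of calreticulin. Its level was 40.2, 39.1 and 40.8 FPKM in NC and 37.6, 34.3 and 35.8 FPKM in siGDF15. PDIA3 (ENSG00000167004, chr15:43746394-43773278, plus strand) encodes ERp57, the disulfide isomerase that works with both lectins, and stood at 30.5, 30.4 and 31.5 FPKM in NC and 28.3, 27.6 and 27.8 FPKM in siGDF15. Both genes behaved as CALR did, with lower FPKM in every siGDF15 library and a fitted fold change close to 0. The values were -0.05 for CANX (SE 0.046, adjusted p = 0.361) and -0.04 for PDIA3 (SE 0.041, adjusted p = 0.433). With library totals CANX was at -0.15 (adjusted p = 0.02) and PDIA3 at -0.14 (adjusted p = 0.0145). The calls on the 3 genes of the lectin chaperone system therefore rest on the scaling chosen. The processed copy PDIA3P1 carried counts equal to 5.32% of those of PDIA3, and the level of PDIA3 is uncertain to that extent.

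PDIA4 (ENSG00000155660, chr7:149003062-149028662, minus strand) encodes ERp72, a disulfide isomerase found in complexes with BiP and GRP94. Its level was 64.7, 68.5 and 65.2 FPKM in NC and 49.7, 47.3 and 48.2 FPKM in siGDF15. The lowest NC library was far above the highest siGDF15 library. PDIA4 fell by 0.35 on the log2 scale (SE 0.042, adjusted p = 0.000167), to 78.7% of NC on TMM-scaled counts.

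PDIA6 (ENSG00000143870, chr2:10783391-10837977, minus strand) encodes P5, a disulfide isomerase that also acts on the luminal side of the UPR sensors. Its level was 80.5, 81.7 and 81.8 FPKM in NC and 82.8, 80.3 and 82.4 FPKM in siGDF15. These ranges overlapped. The fold change of 0.12 was called (SE 0.039, adjusted p = 0.0304), but the call was lost under 10 of 15 alternatives, among them library totals (0.01, adjusted p = 0.787) and leaving out NC replicate 1 (adjusted p = 0.114) or siGDF15 replicate 1 (adjusted p = 0.0708), 2 (adjusted p = 0.0749) or 3 (adjusted p = 0.0985).

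ERP29 (ENSG00000089248, chr12:112013348-112023449, plus strand) encodes a reticuloplasmin related to the disulfide isomerases but without their active-site cysteine pair. It helps secretory proteins move out of the ER and has been described as a partner of thyroglobulin in thyroid cells. Its level was 52.3, 50.8 and 50.2 FPKM in NC and 19.01, 18.37 and 19.41 FPKM in siGDF15. No other member was as far apart between the groups, and the SD within each group was small (51.1 ± 1.11 and 18.9 ± 0.523 FPKM, SD, n = 3). ERP29 fell by 1.33 on the log2 scale (SE 0.043, adjusted p = 4.22e-07), to 39.9% of NC on TMM-scaled counts. Over the 15 alternatives the value stayed between -1.43 and -1.29. The 250 bases before its start, chr12:112013176-112013425 on the plus strand, are printed for comparison with the HSPA5 promoter. They hold no CCAAT on either strand and CCACG 3 times.
ERP29 promoter: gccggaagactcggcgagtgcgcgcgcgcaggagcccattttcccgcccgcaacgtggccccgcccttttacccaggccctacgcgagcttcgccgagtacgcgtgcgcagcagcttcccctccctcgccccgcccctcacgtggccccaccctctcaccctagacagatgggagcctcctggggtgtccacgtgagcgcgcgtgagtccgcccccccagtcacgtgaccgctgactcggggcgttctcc

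XBP1 (ENSG00000100219, chr22:28794555-28800597, minus strand) encodes the transcription factor of the IRE1 arm, and its own gene is a target of the UPR. Its level was 29.0, 29.1 and 30.6 FPKM in NC and 21.9, 23.3 and 21.7 FPKM in siGDF15. The groups did not overlap. XBP1 fell by 0.30 on the log2 scale (SE 0.054, adjusted p = 0.00148), to 81.1% of NC on TMM-scaled counts. The fold change ranged from -0.41 to -0.27 over the 15 alternatives. The total XBP1 transcript and that of HSPA5, the best known target of the pathway, went in opposite directions. The spliced form that encodes the active factor was not measured. In siGDF15 replicate 2, which had the lowest total count and the highest mitochondrial share, all 9 folding proteins had their lowest siGDF15 FPKM and XBP1 had its highest. Without that library the fold change of XBP1 was -0.34 (adjusted p = 0.00287) and that of HSPA5 was 0.22 (adjusted p = 0.01).

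**Figure D2:**
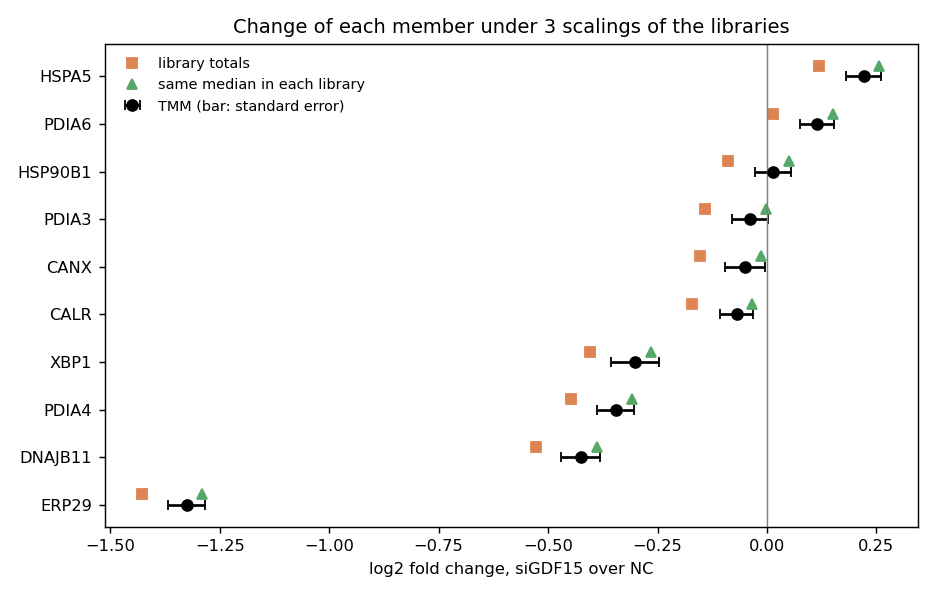
log2 fold change of siGDF15 over NC for each member, ordered by value. Black points are the values with TMM scaling and bars their standard error (n = 3 per group), squares the values with library totals, and triangles those with the library medians made equal. HSPA5 lay above 0 (0.22 with TMM) and XBP1, PDIA4, DNAJB11 and ERP29 lay below 0 (-0.30 to -1.33 with TMM) under all 3 scalings, while HSP90B1 changed sign.

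Ordered by FPKM in NC, the members ran CALR, HSPA5, PDIA6, PDIA4, ERP29, HSP90B1, CANX, PDIA3, XBP1 and DNAJB11, a span of 27.0-fold between the means. This order and span rest on the transcript lengths behind FPKM, and the order by counts differed. By counts, HSP90B1 and CANX stood above PDIA6, PDIA4 and ERP29, and DNAJB11 above XBP1, in every NC library. HSPA5 stood above CALR by counts in every siGDF15 library. PDIA3 and XBP1 were the only neighbours in the FPKM order of NC whose libraries overlapped, with means that differed 1.04-fold. HSP90B1 and CANX differed 1.05-fold without overlap. In siGDF15 the span was 34.5-fold and no neighbours overlapped. ERP29 moved from rank 5 to rank 9, below XBP1, and the other members kept their order among themselves.

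The summed FPKM of the 9 folding proteins was 722.0, 718.2 and 721.8 in NC and 646.9, 623.1 and 641.5 with siGDF15. All siGDF15 sums were below all NC sums, with 720.7 ± 2.14 against 637.2 ± 12.5 FPKM (SD, n = 3, ratio 0.884, exact permutation p = 0.1, the smallest possible). Without ERP29, a sum chosen after the values were seen, the ratio was 0.923. On TMM-scaled counts the log2 difference of the sum was -0.02 rather than the -0.18 of FPKM. The count sum differs from the FPKM sum in library scaling and also in weighting long transcripts more, and the parts of these were not separated.

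A ratio within a library cancels the scaling between libraries, though not the choice of reference genes. The log2 ratio of XBP1 to the median of the 9 folding proteins was -0.85, -0.80 and -0.71 in NC and -0.91, -0.70 and -0.88 with siGDF15. The groups overlapped and differed by -0.04 (exact permutation p = 0.6). The middle gene was ERP29 in every NC library and HSP90B1 in every siGDF15 library, so the fall of ERP29 entered this ratio. On log2 CPM, which ranks the genes by counts and not per length, the difference was -0.29. Against the mean log2 level of the 8 folding proteins other than ERP29, also chosen after the values were seen, XBP1 was at -0.95, -0.94 and -0.88 in NC and at -1.21, -1.05 and -1.20 with siGDF15. These did not overlap and differed by -0.23 (exact permutation p = 0.1).

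The promoter matches were next set beside the changes. The 6 members with an exact ERSE had fold changes between -0.30 (XBP1) and 0.22 (HSPA5), and the members with a window but no match were ERP29 (-1.33), DNAJB11 (-0.43) and PDIA4 (-0.35). This arrangement was noticed after the values were known and is a description of 9 genes. Counted from the annotated start, matches began at position -66 in HSPA5, -86 in PDIA6, -52 in XBP1, -225 in CALR, and -194 and -89 in HSP90B1. The single CANX site began at -9, -151 or -189 from 3 of its 4 annotated starts. Matches were present in 1 of 2 windows each for PDIA6 and XBP1. The related ERSE-II (ATTGGNCCACG, 0.0541% of windows) and the core of the UPR element bound by XBP1 (TGACGTG, 1.97% of windows), searched on both strands, were in no member's window. ERSE-II shares CCAAT (read as ATTGG) and CCACG with ERSE at another spacing.

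**Figure D3:**
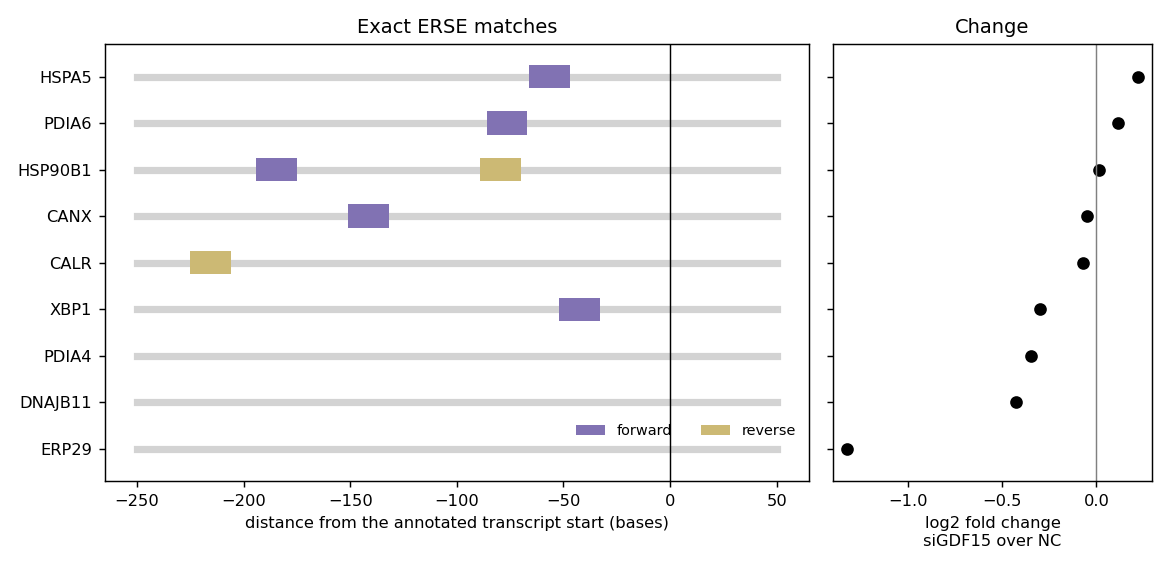
Left, position of each exact ERSE match along a member's promoter window (grey bar, in bases from the annotated transcript start at 0), with forward matches in purple and reverse matches in yellow, drawn for 1 window per gene. Right, the log2 fold change of siGDF15 over NC of the same gene with TMM scaling. The 6 genes with a match run from 0.22 to -0.30 and the genes without lie from -0.35 to -1.33. This split was noticed after the values were known. The 8 tested genes outside the members with an exact ERSE, not drawn, ranged from -0.83 to 0.73.

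Outside the members, 8 tested genes had an exact ERSE, of which 4 were called higher, 2 lower and 2 not called. Their fold changes ranged from -0.83 to 0.73, wider than those of the members with a match. Divergent gene pairs that share a single site did not move together. ALG12, a mannosyltransferase of glycan assembly, rose by 0.26 (adjusted p = 0.0141) and CRELD2, an ER stress-induced protein, fell by 0.26 (adjusted p = 0.00884) around the same motif. EIF2A, a translation initiation factor, rose by 0.39 (adjusted p = 0.000429) whereas SERP1, a small protein of the translocon, fell by 0.83 (adjusted p = 6.44e-06).

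Other genes of the pathway were grouped by role. Beside each count stand the same 30.0% higher and 31.4% lower of all tested genes, and list medians smaller than the shift between scalings carry no direction. Among the UPR sensors and the proteases that activate ATF6, 5 of 6 genes were tested, with 1 higher, 2 lower and 2 not called (median 0.08). ERN1, which encodes IRE1, was untested at 0.465 to 0.586 FPKM. EIF2AK3, which encodes PERK, was at 0.19 (adjusted p = 0.0707) and ATF6 at 0.08 (adjusted p = 0.126), neither past the threshold. MBTPS1, the site-1 protease, rose by 0.28 (adjusted p = 0.0013), while MBTPS2, the site-2 protease, fell by 0.28 (adjusted p = 0.00277) and ATF6B fell by 0.33 (adjusted p = 0.00875).

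Of 11 co-chaperones and partners of HSPA5, 3 rose, 4 fell and 4 were not called (median -0.04). DNAJC1, a membrane J protein, rose by 1.41 (adjusted p = 7.53e-06), and both SIL1, the nucleotide exchange factor of BiP, at 0.70, and SDF2 at 0.22 were higher. MANF, a secreted ER stress protein, fell by 0.59 (adjusted p = 0.000141), and SDF2L1 at -0.35 (adjusted p = 0.0176), CRELD2 at -0.26 and HYOU1, a large HSP70-like exchange factor, at -0.19 were also lower. With 30.0% of all tested genes called higher and 31.4% lower, this split was near the background and is no trait of BiP partners.

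Of 13 tested oxidative folding enzymes, 3 rose, 6 fell and 4 were not called (median -0.14). P4HB, the archetypal protein disulfide isomerase, rose by 0.53 (adjusted p = 1.16e-05), with PRDX4, an ER peroxiredoxin, at 0.51 and PDIA5 at 0.33. TXNDC5 fell by 0.80 (adjusted p = 1.8e-05), with ERO1A, the oxidase that recharges disulfide isomerases, at -0.52 and TMX1 at -0.46. TMX3 (-0.49, adjusted p = 6.3e-05), TXNDC12 (-0.50, adjusted p = 0.000808) and QSOX1 (-0.14, adjusted p = 0.0193) were the other genes of the list that fell, and they are named here to complete it. PDIA4 among the members thus fell along with most of the called enzymes of this list, whereas P4HB, PDIA5 and PRDX4 did not.

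Around CALR and CANX, the 8 other genes of the lectin cycle split into 3 higher, 3 lower and 2 not called (median 0.04). The glucosidase subunits GANAB (0.41) and PRKCSH (0.33) and the mannosidase MAN1B1 (0.60) rose. The cargo receptor pair LMAN1 (-0.29) and MCFD2 (-1.07, adjusted p = 5.06e-06) and the folding sensor UGGT1 (-0.16) fell. Of 8 genes for prolyl isomerases and the collagen chaperone SERPINH1, 5 rose, 2 fell and 1 was not called (median 0.40). FKBP14 (0.83), FKBP10 (0.82) and PPIB (0.49), which act on procollagen, were among those that rose, and FKBP9 (-0.41) and SERPINH1 (-0.22) fell.

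In ER-associated degradation, 9 of 21 tested genes rose, 5 fell and 7 were not called (median 0.08). HERPUD1 rose by 0.88 (adjusted p = 1.75e-06), OS9 by 0.58 and EDEM2 by 0.49, while UBE2J1 (-0.85), FAF2 (-0.75) and DERL1 (-0.71) fell. Of 22 genes of the translocon, signal peptidase and oligosaccharyltransferase, 10 rose, 7 fell and 5 were not called (median 0.09). OSTC (0.65), SSR4 (0.47) and SSR2 (0.42) were higher and SPCS3 (-0.87), SPCS2 (-0.50) and SEC62 (-0.49) lower.

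The chaperones of the cytosol and mitochondria, which belong to other stress responses, showed 1 higher, 10 lower and 4 not called among 15 genes (median -0.63). HSPB1 rose by 0.50, whereas DNAJB1 fell by 0.70 and the stress-inducible HSP70 genes HSPA1B and HSPA1A were at -1.56 and -1.33. HSPA1A and HSPA1B are near-identical copies whose reads the counting could split, so their separate values are uncertain. Of 7 tested genes listed as output of the PERK arm, 2 rose, 4 fell and 1 was not called (median -0.30). Whether PERK had a part in these changes was not tested. ATF4, the central factor of that arm, fell by 0.35 (adjusted p = 0.00026), with ASNS at -2.70, CHAC1 at -2.03 and TRIB3 at -0.30. DDIT3, which encodes CHOP, rose by 0.48 (adjusted p = 0.00453) and PPP1R15A by 0.24, and SESN2 was at -0.14 (adjusted p = 0.0547). ATF3 was untested, with a mean of 0.749 FPKM in NC and 1.10 FPKM in siGDF15. For the whole KEGG pathway of protein processing in the ER, read from the annotation in the deposited table, 140 genes other than the members were tested, of which 50 rose, 43 fell and 47 were not called (median 0.03).

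**Figure D4:**
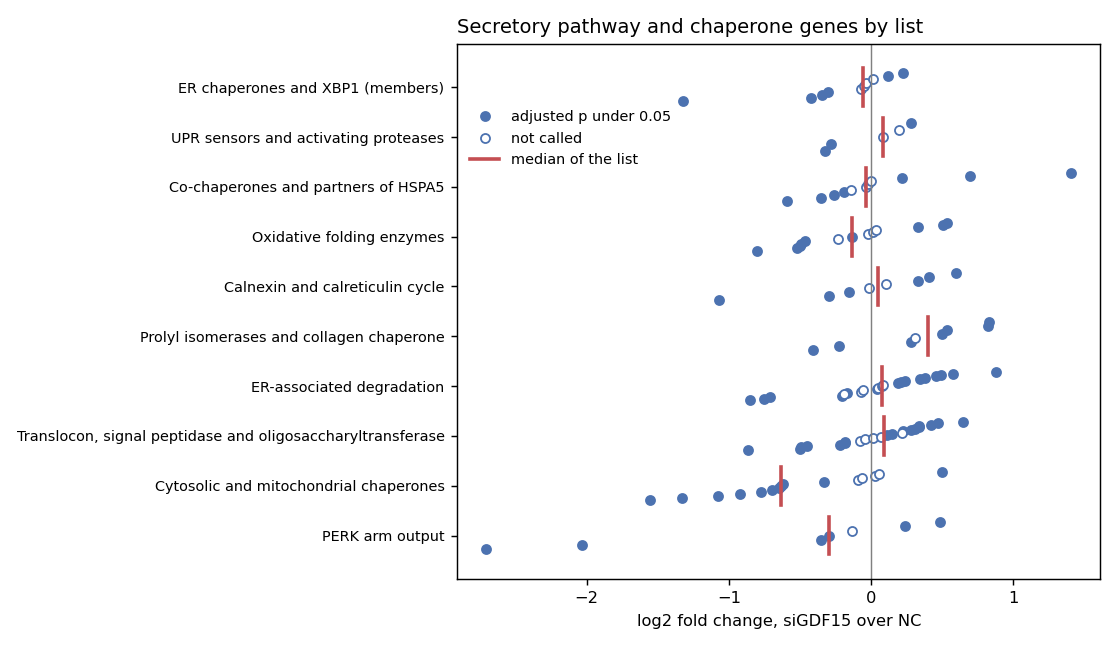
log2 fold change of siGDF15 over NC for the tested genes of each list, with filled points for genes at an adjusted p under 0.05, open points for the rest and a red bar at the median of each list; points are spread vertically only to separate them. The members (median -0.06) and most ER lists lie on both sides of 0, the prolyl isomerases had a median of 0.40, and 10 of 15 cytosolic and mitochondrial chaperones fell.

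By the distance between profiles over the 6 libraries (Euclidean, on log2 CPM centred on the NC mean), the genes nearest to HSPA5 were MYO1C (0.0258), SYVN1 (0.0454), PCIF1 (0.0467), TAF9 (0.0491) and MSANTD4 (0.0537). SYVN1 encodes HRD1, a ubiquitin ligase of ER-associated degradation. Nearest to XBP1 were RFK (0.0485), FAF1 (0.0685), TMEM11 (0.0744), UBTF (0.0792) and YEATS2 (0.0832). With 6 libraries in 2 groups many genes lie about as near, and these names are a description.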

How the data were processed

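Poly(A) RNA of cells labelled KHM-5M was sequenced as read pairs in 3 NC and 3 siGDF15 libraries, which the study's methods describe as biological replicates. Groups and replicate numbers came from the sample labels. Per the labels, the authors used fastp, HISAT2, StringTie and edgeR on GRCh38; versions, options and the strand setting of counting are not given in the sources used here. The deposited FPKM values were scaled by the authors by transcript length and mapped fragments. The deposited table also holds expected counts, which the authors estimated from coverage without normalization and which were whole, so that no rounding changed them. Their totals are under "Total counts" in the results, and no interval is given, since an estimated count is not a tally of reads. The authors' own fold changes and p-values were not used, and 0 columns of values per library were left out.

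Genes whose FPKM averaged 1 or more (11867) were tested two-sided with edgeR 4.0.16 (quasi-likelihood, TMM, no covariates) and Benjamini-Hochberg adjustment in R 4.3.3, with SE derived from the fold change and its F statistic. The code was tested on simulated data. FPKM and ratios per library were compared with exact permutation tests in Python 3.11.15 with scipy 1.17.1. Promoters came from RefSeq (GRCh38.p14) and were matched by symbol. Alternatives were library totals, DESeq2 size factors, equal medians, DESeq2 1.42.0, limma 3.58.1 on log2(FPKM + 1) and log2(FPKM + 0.1), a minimum of 0.1 FPKM, no filter, the replicate number as a block, and leaving out each library. From the other lists, up to 3 called genes with the smallest adjusted p in each direction were named, and every gene of the sensor and PERK lists; the genes with a motif and the further genes that complete a list's falls were named after their values were seen. The members and lists were chosen with earlier results of these data known. With 4 counts taken as 1 read pair, which is an assumption, no 2 libraries of a group agreed within counting noise. The chi-square per gene was 7.74 to 17.5 in NC and 3.28 to 4.58 in siGDF15.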

Additional observations from a re-analysis of the deposited data

How the results depend on the processing

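HSPA5, PDIA4, ERP29, DNAJB11 and XBP1 kept direction and call under all 15 alternatives. Members called higher were 2 in the reported analysis and 1 with library totals, with limma on log2(FPKM + 1) or log2(FPKM + 0.1), with a minimum of 0.1 FPKM and with no filter, PDIA6 being the one lost, and ranged from 1 to 2 when a library was left out. Members called lower were 4, and 7 with library totals and with both limma fits, which added CALR, CANX and PDIA3. These fits do not use TMM. The median of the members was -0.06, and -0.16 with library totals, -0.024 with equal medians, -0.16 and -0.17 with limma at pseudocounts of 1 and 0.1, -0.091 with a minimum of 0.1 FPKM and -0.11 with no filter. HSP90B1 turned from 0.013 to -0.088 with library totals, -0.090 and -0.092 with limma, -0.017 with a minimum of 0.1 FPKM and -0.040 with no filter, and ranged from -0.0067 (without siGDF15 replicate 1) to 0.040 when a library was left out. The UPR sensor list had 3 called genes, and 5 with equal medians. Genes past a 2-fold change were 927, and 560 with limma on log2(FPKM + 1), 1669 with a minimum of 0.1 FPKM and 1659 with no filter. The share of calls that were higher was 48.9%, 36.6% with library totals and with limma at either pseudocount, and 53.6% with equal medians. The XBP1 ratio was -0.04, -0.29 on log2 CPM, which is not per length, and -0.23 without ERP29. The log2 difference of the summed folding proteins was -0.18, -0.025 on log2 CPM and -0.12 without ERP29. The alternatives without ERP29 were chosen after seeing the data. Apart from the construction named, the cause was not tested. The numbers did not pair the samples (deviation correlations of same-numbered libraries 0.0276, -0.0753 and 0.0458). With the replicate number as a block, 6906 rather than 7286 genes were called and 1 member was called higher, with PDIA6 at an adjusted p of 0.0721. The lower total of siGDF15 replicate 2 and 3 libraries per group limit the precision.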
